A study of Mus musculus with 12 samples.

Results

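Basophils were compared with DN-GMPs, the E-cadherin-negative and FceRIa-negative part of the granulocyte-monocyte progenitors, over every gene of the table, from the uncommitted progenitor to the mature cell. The comparison used the 3 basophil and the 3 DN-GMP libraries, 6 of the 12 libraries of the series, chosen by their labels alone, and all 14560 genes listed. Both populations were sorted in 2 passes from the bone marrow of C57BL/6 mice. DN-GMPs carried c-Kit, CD34 and CD16/32 and lacked B220, CD3, CD11b, Gr1, Ter119, Sca1, E-cadherin (CDH1) and FceRIa. Basophils carried CD49b and FceRIa and lacked B220, CD4, CD8a, Ter119, Sca1 and c-Kit, so their gate, unlike that of DN-GMPs, set no limit on CD3, CD11b or Gr1. The remaining libraries are of the steps between them, Pro-BMPs (CDH1 present, FceRIa absent) and Pre-BMPs (FceRIa present, CDH1 given as absent), and appear here only as values beside the main comparison. The design names 3 mice, with no treatment, age or sex given, and nothing in the labels links a replicate number to an animal. The p-values therefore reflect how these libraries vary, which may be technical.

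Granulocyte-monocyte progenitors divide in the marrow and give rise to neutrophils, monocytes and, through GATA2-expressing intermediates, basophils and mast cells. Basophils are rare granulocytes that bind IgE through the high-affinity receptor, whose chains are encoded by Fcer1a, Ms4a2 and Fcer1g. On activation they release histamine, proteases, lipid mediators and cytokines such as IL-4. In mice the proteases Mcpt8 and Prss34 are their classical markers, while the primary granule enzymes myeloperoxidase, neutrophil elastase and proteinase 3 mark the neutrophil side of the progenitor.

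The sorted populations carried the markers of their labels. Prss34 was at 0, 0.103 and 0 CPM (counts per 1000000 of the scaled library) in the DN-GMP libraries and at 19730, 21543 and 23725 CPM in the basophil libraries. Cdh1, the gene of E-cadherin, was at 0.0212, 0.103 and 0.149 CPM against 1201, 1064 and 884 CPM. Fcer1a had no read in any DN-GMP library and stood at 2735, 2771 and 3079 CPM in basophils. Each of these genes was high in every basophil library and at or near 0 in every DN-GMP library. Mpo was at 11479, 13035 and 10816 CPM in DN-GMPs and at 1842, 2651 and 2595 CPM in basophils, and Kit at 216, 335 and 231 against 10.5, 27.9 and 28.8 CPM, both without overlap. Mpo thus remained at a high level in basophils. FceRIa and c-Kit were gated in both populations, CDH1, CD34 and CD16/32 in DN-GMPs only, and CD49b in basophils only. The differences in Fcer1a, Kit, Cdh1, Itga2, Cd34 and Fcgr3 thus depend on the sort of at least 1 population and are no finding. The gate gene Itga2 (CD49b) was at 1.85, 0 and 0.795 CPM in DN-GMPs and 155, 132 and 85.2 CPM in basophils, and Cd34 at 494, 506 and 413 against 26, 17.8 and 50.7 CPM. Fcgr3, part of CD16/32, was already at 288, 319 and 271 CPM in DN-GMPs and was higher in basophils, at 894, 825 and 887 CPM.

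Reads on listed genes ran from 29762981 to 39471460 over the 6 libraries. Where a library held no read of a gene, the upper limit taken was 3 reads, which corresponds to 0.0618 to 0.0745 CPM and covers counting error only. Pearson correlations of log2 values over the 8128 genes averaging above 10 CPM were 0.917 to 0.937 among basophil libraries, 0.913 to 0.922 among DN-GMP libraries and 0.476 to 0.559 between the populations, given as a description across genes. The 2 populations also differed in composition. Reads outside annotated features made up 11.2% to 12.6% in basophils and 6.65% to 7.77% in DN-GMPs, and the 50 most read genes took 13.5% to 14.2% against 11.0% to 11.4% of listed reads. For both measures the exact two-sided permutation p was 0.1, the smallest that 3 against 3 libraries allow.

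Of the 14560 genes, 6749 (46.4%) passed limma's moderated test at a Benjamini-Hochberg adjusted p under 0.05, 3373 (23.2%) higher and 3376 (23.2%) lower in basophils. At an absolute log2 change of at least 1 there were 4941 genes (33.9%), 2563 higher and 2378 lower. At a log2 change of at least 5, that is 32-fold, 631 genes were higher and 566 lower. Libraries of the 2 populations did not overlap for 7882 genes (54.1%). The balance between the directions rests on the scaling: the library size behind the deposited values is the total times a factor of 0.839 to 0.858 in basophils and of 1.03 to 1.04 in DN-GMPs. With plain library totals the median log2 change of all genes moved from -0.0088 to -0.2686, and the split became 2702 higher and 4276 lower. Levels are shares of each library's RNA, so in these sorted bulk samples fewer cells of a type and less RNA per cell cannot be told apart.

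**Figure D1:**
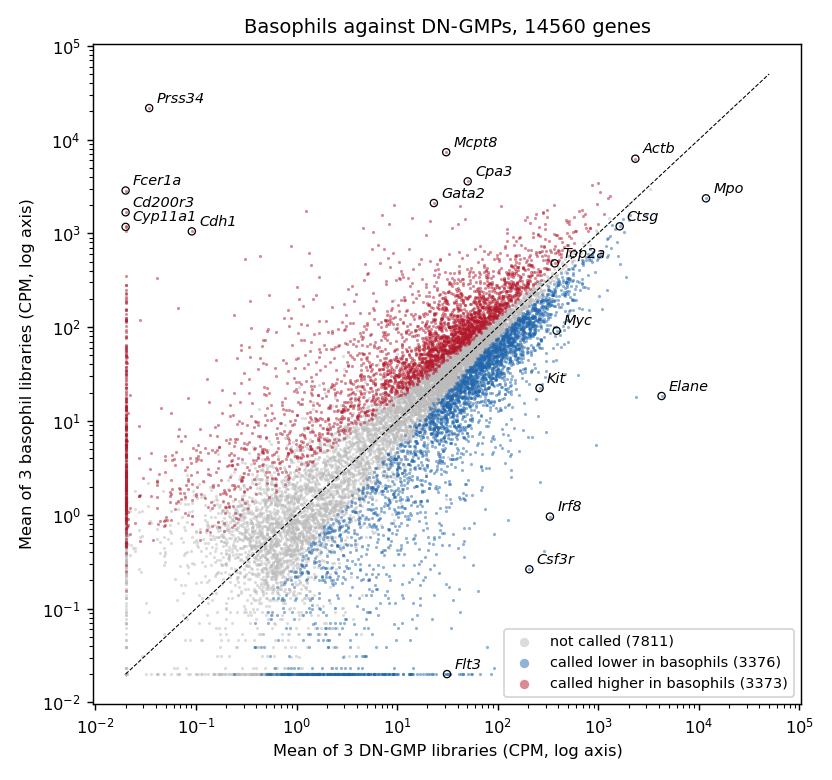
Mean expression of each of 14560 genes in the 3 DN-GMP libraries (horizontal, CPM, log axis) and the 3 basophil libraries (vertical, CPM, log axis), with genes at 0 drawn at 0.02 CPM. The 3373 genes called higher in basophils are red, the 3376 called lower are blue, and the dashed line marks equal means.

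Prss34 and Mcpt8 had the highest mean CPM of all genes in basophils. The basophil serine protease Mcpt8 was at 39.6, 27.1 and 25.7 CPM in DN-GMPs and at 6686, 7055 and 8250 CPM in basophils, a log2 change of 7.92 ± 0.15 (SE, adjusted p = 6.4e-11). Cpa3, a carboxypeptidase of mast cell and basophil granules, was at 56.9, 34.1 and 60.1 against 3446, 3453 and 3854 CPM, a log2 change of 6.19 ± 0.17 (adjusted p = 1.5e-09). Every basophil library was far above every DN-GMP library for both. Hdc, the enzyme that makes histamine, was already expressed in DN-GMPs at 216, 329 and 297 CPM and reached 1811, 1796 and 1515 CPM, a log2 change of 2.62 ± 0.13 (adjusted p = 5.8e-08). The means of Prss34 in the steps between were 99.7 CPM in Pro-BMPs and 1117 CPM in Pre-BMPs, and those of Mcpt8 105 and 591 CPM, so most of the final level of both was reached after the Pre-BMP gate.

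The chains of the IgE receptor differed in how far they were off at the start. Ms4a2, the beta chain, was at 2.17, 0.741 and 0.844 CPM in DN-GMPs and at 1743, 1736 and 1766 CPM in basophils (log2 change 10.61 ± 0.31, adjusted p = 1.5e-09). Fcer1g, the signalling chain shared with other Fc receptors, was at 139, 117 and 111 against 1024, 990 and 1044 CPM (3.06 ± 0.15, adjusted p = 3.7e-08). Fcer1a, with no read in DN-GMPs, was at least 42939-fold higher against a floor of 3 reads per library.

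A GATA motif was more frequent in the promoter windows of the genes that rose most than in all windows. The motif searched was AGATAA on either strand, a sequence that GATA factors bind, in windows of 300 bases (250 before to 50 after the annotated start) that RefSeq gives on build GRCm38.p6. A window was matched by symbol for 10044 of the 14560 genes. It held the motif in 6.75% of all windows, in 16.2% of the 390 windows of genes higher by a log2 change of at least 5, and in 7.64% of the 406 windows of genes lower by as much. The mean GC content of these 3 sets was 60.5%, 56.4% and 58.7%, and its part in the shares was not tested. A match is a description of letters, not of binding. Of the named genes that hold it, 5 were chosen for their products after their values were seen. They encode a serine protease, the alpha and beta chains of the IgE receptor, a carboxypeptidase and an activating surface receptor. The 100 bases before their starts are shown, 5′ to 3′, with the motif in capitals. TTATCT is the same motif read on the other strand.
Prss34, chr17:25298294-25298393, + strand: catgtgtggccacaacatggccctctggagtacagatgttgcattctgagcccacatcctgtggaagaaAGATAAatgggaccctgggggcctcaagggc
Fcer1a, chr1:173227230-173227329, - strand: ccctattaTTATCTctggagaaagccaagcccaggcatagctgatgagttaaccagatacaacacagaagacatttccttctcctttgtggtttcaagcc
Ms4a2, chr19:11623720-11623819, - strand: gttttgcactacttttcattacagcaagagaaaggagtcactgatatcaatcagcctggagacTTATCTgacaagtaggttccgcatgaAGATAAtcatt
Cpa3, chr3:20242182-20242281, - strand: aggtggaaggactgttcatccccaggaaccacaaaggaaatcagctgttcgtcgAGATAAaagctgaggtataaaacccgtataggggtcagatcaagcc
Cd200r3, chr16:44943578-44943677, + strand: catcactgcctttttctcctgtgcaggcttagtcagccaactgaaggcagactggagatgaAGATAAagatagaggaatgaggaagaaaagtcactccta
The motif began at position -31 from the start in Prss34, -92 in Fcer1a, -37 and -11 in Ms4a2, -46 in Cpa3 and -39 in Cd200r3.

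Basophil markers as a list rose almost without exception. Of 31 members measured, 28 were higher and 2 lower, with a median log2 change of 8.92 beside -0.0088 over all genes. The 28 include the gate genes Fcer1a and Itga2. The list was drawn up with basophils in view and earlier results of these data known, so its direction is no independent evidence. Cd200r3, an activating receptor of basophils and mast cells, had no read in DN-GMPs and was at 1784, 1673 and 1573 CPM in basophils, at least 25159-fold higher. Cyp11a1, the enzyme that opens steroid hormone synthesis, went from no read to 1256, 1171 and 1088 CPM, at least 17582-fold higher. Alox15, a lipoxygenase, went from no read to 1196, 977 and 1017 CPM, at least 15954-fold higher, with means of 1.02 and 0.943 CPM in Pro-BMPs and Pre-BMPs. Ifitm1, an interferon-inducible membrane protein, was at 44.8, 39.4 and 35.9 against 1221, 1282 and 1276 CPM (log2 change 4.98 ± 0.15, adjusted p = 2.2e-09). Ms4a3, a membrane protein of the myeloid progenitors, was the best expressed of the members that fell, at 1031, 1071 and 1005 against 482, 621 and 570 CPM (-0.90 ± 0.16, adjusted p = 0.00084).

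**Figure D2:**
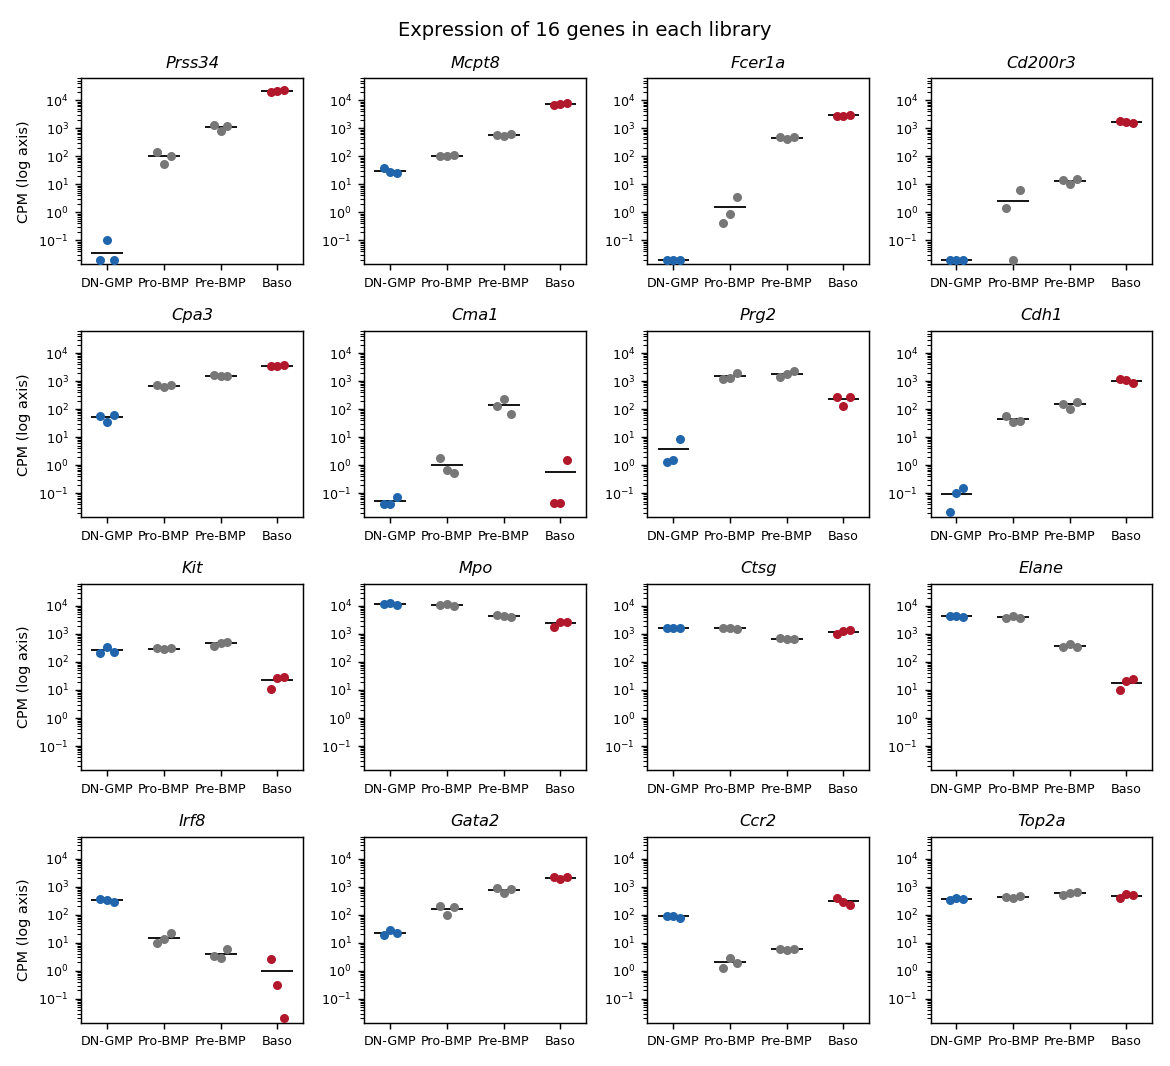
Expression of 16 genes in each of the 12 libraries (CPM, log axis), with 3 points per population, a line at the mean, and values of 0 drawn at 0.02 CPM. DN-GMPs are blue, basophils red and the steps between grey. Prss34, Fcer1a, Cd200r3 and Cdh1 rise over several orders of magnitude, Elane and Irf8 fall, Ctsg and Top2a change little, and Cma1 and Prg2 are highest in between.

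Of the 39 genes for granule content, lipid mediators and amines, 25 were higher and 3 lower (median log2 change 2.28, or 2.17 with genes at 0 in one population set to their lower bound). Alox5, the enzyme that begins leukotriene synthesis, was at 15.1, 4.63 and 1.32 against 1571, 1570 and 1620 CPM (log2 change 8.45 ± 0.63, adjusted p = 9.8e-07). Cd63, a granule membrane protein, was at 398, 364 and 340 against 1998, 1982 and 2106 CPM (2.47 ± 0.08, adjusted p = 3.5e-09). Slc6a4, the serotonin transporter, had no read in DN-GMPs and was at 89.3, 63.3 and 38.6 CPM in basophils. Lta4h, which makes leukotriene B4, fell from 953, 1029 and 1077 to 195, 214 and 230 CPM (-2.26 ± 0.08, adjusted p = 3.7e-09). Ptgs1, the constitutive cyclooxygenase, fell from 57.8, 46.2 and 49.1 to 0, 2.98 and 4.11 CPM.

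In the list of the IgE receptor and its proximal signalling genes, 22 of 35 were higher and 2 lower, with a median log2 change of 1.22. The 22 include the 3 receptor chains, and so the gate gene Fcer1a. The adaptor Lat was at 0, 0.885 and 1.56 CPM in DN-GMPs and at 144, 149 and 161 CPM in basophils. Its relative Lat2 was at 19.6, 22.2 and 22.4 against 522, 495 and 491 CPM (log2 change 4.56 ± 0.21, adjusted p = 3.3e-08). Of the kinases, Fyn rose the most, with a log2 change of 4.35 ± 0.18 (adjusted p = 1.2e-08), beside 1.15 ± 0.19 for Lyn (adjusted p = 0.00041) and 0.72 ± 0.17 for Syk (adjusted p = 0.0041). Lyn and Syk were thus already transcribed in the progenitor, at 62.7 to 69.6 CPM and 97.1 to 145 CPM. Cbl, a ubiquitin ligase that limits receptor signals, fell from 70.2, 88.4 and 56 to 24.4, 12.2 and 8.28 CPM (-2.38 ± 0.40, adjusted p = 0.0005). The other member called lower was Itpr1 (-0.98 ± 0.37, adjusted p = 0.048), whose call was lost in 8 of the other settings.

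Receptors for outside signals were mostly higher. Of 49 chemokine, complement, lipid, nucleotide and other receptors measured, 32 were higher and 5 lower (median log2 change 2.93). All are G protein-coupled except the ATP-gated channels P2rx1, P2rx4 and P2rx7, which are among the 32. C3ar1 and C5ar1, the receptors of the complement fragments C3a and C5a, had no read in DN-GMPs and were at 443, 354 and 259 CPM and at 225, 204 and 127 CPM in basophils, at least 5280-fold and 2777-fold higher. Hrh4, a histamine receptor, and Adora2b, an adenosine receptor, likewise went from no read to 238, 225 and 143 CPM and to 179, 122 and 172 CPM. C5ar1 had no read in Pro-BMPs or Pre-BMPs either, and the means of C3ar1, Hrh4 and Adora2b in Pre-BMPs were 0.855, 6.51 and 0.927 CPM, against a lowest basophil value of 122 CPM among the 4. Cxcr2, a chemokine receptor best known from neutrophils, was at 13.9, 12.2 and 12.9 against 810, 712 and 538 CPM (5.70 ± 0.33, adjusted p = 1.4e-07). Ccr3, the eotaxin receptor, was at 0, 0.0206 and 0 against 106, 97.2 and 60.3 CPM. S1pr3, a receptor of sphingosine 1-phosphate, went the other way, from 52.8, 45.2 and 38.4 CPM to no read, at least 656-fold lower.

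In the list of cytokine and growth factor receptors, 16 of 39 were higher (41.0%) and 11 lower (28.2%), with a median log2 change of 0.92. Of all genes, 23.2% were called in each direction, not far from the share lower in the list. The list also holds the cytokine Osm, the receptor Cd200r1, both called higher, and the gate gene Kit. Il1rl1, the IL-33 receptor, was at 0, 0 and 1.04 against 198, 181 and 190 CPM, and Il18r1 went from no read to 183, 140 and 136 CPM. Il7r, a chain of the IL-7 and TSLP receptors, went from no read to 135, 113 and 106 CPM, with means of 0.0626 and 0.0132 CPM in Pro-BMPs and Pre-BMPs. Il3ra, the specific chain of the IL-3 receptor, was at 19.2, 15.8 and 12.4 against 92.7, 105 and 114 CPM (2.73 ± 0.21, adjusted p = 1.2e-06). The common beta chain Csf2rb was at 92, 147 and 87.1 against 2505, 1577 and 1844 CPM (4.20 ± 0.24, adjusted p = 1.6e-07), while Csf2ra, the GM-CSF-specific chain, fell from 58.8, 95.5 and 88.5 to 13.2, 28.8 and 25.3 CPM (-1.90 ± 0.28, adjusted p = 0.00021). The near-identical copy Csf2rb2 rose too, from 0.764, 3.75 and 0.497 to 412, 285 and 337 CPM, and the division of reads between the copies is uncertain. Receptors of the other fates fell: Csf3r, for G-CSF, from 183, 249 and 187 to 0.0925, 0.578 and 0.115 CPM, and Flt3, of early progenitors, from 37.4, 32.1 and 24.6 CPM to no read, at least 452-fold lower.

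Among 22 cytokines, chemokines and growth factors measured, 13 were higher and 3 lower (median log2 change 2.26, or 2.37 with genes at 0 in one population set to their lower bound). Il4 went from no read to 121, 110 and 115 CPM and Il6 from no read to 179, 168 and 194 CPM, at least 1731-fold and 2707-fold higher. The chemokine gene Ccl3 was at 0.913, 0 and 0 against 605, 513 and 471 CPM, and Ccl4 at 0, 0 and 0.72 against 153, 140 and 107 CPM. Osm, a cytokine of the IL-6 family, was at 3.01, 5.66 and 2.61 against 77.5, 84.8 and 60.5 CPM. Pf4, the platelet chemokine, fell from 14.4, 42.2 and 43.3 CPM to no read, and the growth factor Vegfa fell from 17.1, 24.8 and 10 to 1.5, 0.486 and 2.21 CPM.

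Immediate early and AP-1 genes, which also respond to handling of cells, were higher for 17 of 27 members and lower for 3 (median log2 change 3.00). These are 63.0% and 11.1%, beside 23.2% of all genes in each direction. Fos, Egr1 and Nr4a1 were not called, at log2 changes of -1.90, 3.78 and -5.07. Nr4a1 had no read in any basophil library. Nfkbia, the inhibitor of NF-kB, was at 30.2, 31.3 and 36.2 against 287, 290 and 287 CPM (3.15 ± 0.14, adjusted p = 1.7e-08), and Klf6 at 7.64, 14.7 and 9.66 against 404, 332 and 254 CPM (4.98 ± 0.28, adjusted p = 1.2e-07). Dusp2, a phosphatase of MAP kinases, fell from 39.7, 45.5 and 51.8 to 1.46, 0 and 0 CPM. The members called higher rose in the same libraries as the cytokine genes, and their part in those values was not tested. Genes of pattern recognition and NF-kB were higher for 15 of 31 and lower for 7 (median 0.86), with Tnfaip3 up from 0.467, 2.49 and 6.16 to 60.4, 53 and 87.5 CPM and Tlr2 down from 16.3, 22.6 and 14.9 to 0.74, 1.32 and 0 CPM. In the interferon response and MHC list 13 of 36 were higher and 6 lower (median 0.58), a balance that depended on the settings. The counts were 10 and 9 with plain library totals and 11 and 9 with quantile normalization. With 1 library left out, 9 to 13 were higher and 3 to 8 lower. Usp18, an interferon-induced protease, was at 2.27, 16.3 and 6.38 against 34.6, 37.6 and 59 CPM, and Nlrc5, an activator of MHC class I genes, at 22.3, 28.6 and 22 against 0.231, 2.87 and 0.0231 CPM.

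Surface receptors that set the threshold of activation were mostly higher, with 21 of 36 inhibitory and Fc receptors higher (58.3%) and 9 lower (25%). Their median log2 change was 1.15. The share lower was not far from the 23.2% of all genes called in each direction. Lilrb4a, an inhibitory receptor, was at 0, 0.988 and 0.298 against 683, 584 and 474 CPM, with the caution that its reads may be shared with a close relative. Pirb, another inhibitory receptor, was at 1.57, 1.59 and 0.149 against 104, 62.2 and 55 CPM, and Cd244a at 16.2, 12.4 and 14.5 against 497, 428 and 312 CPM (4.83 ± 0.25, adjusted p = 6.5e-08). Clec7a, which recognises fungal glucans, fell from 14.3, 20.7 and 25.5 CPM to no read, and Trem1, an amplifier of inflammation, from 21.3, 36.7 and 25.4 to 0, 0 and 1.43 CPM. Of 31 integrins, cadherin and catenins, 18 were higher and 2 lower (median 1.34). The list holds the gate gene Cdh1. Itgb7 was at 4.99, 3.29 and 5.31 against 1246, 1126 and 1053 CPM (adjusted p = 2.8e-09) and Itga2b at 19.2, 32.3 and 12.9 against 1588, 1189 and 1245 CPM (6.05 ± 0.29, adjusted p = 3.4e-08). Itga4, which pairs with Itgb7, fell from 72.2, 84.3 and 57.7 to 23.2, 37.7 and 29 CPM (-1.26 ± 0.22, adjusted p = 0.00071), after a mean of 263 CPM in Pre-BMPs. Itgam (CD11b), excluded by the DN-GMP gate but not by the basophil gate, was at 3.76, 7.27 and 4.17 against 72, 63.5 and 52 CPM.

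Genes of the neutrophil side of the progenitor were mostly lower, by very different amounts. In a list of 25 primary granule and promyelocyte genes, 17 were lower and 6 higher (median log2 change -0.90). Of the 6, Lcn2, Ltf, Camp and Chil3 are known from later granules or stages and not from primary granules. Elane, neutrophil elastase, fell from 4403, 4425 and 3950 to 10.1, 21.5 and 23.7 CPM (-7.94 ± 0.25, adjusted p = 2.5e-09), and Prtn3, proteinase 3, from 2448, 2412 and 2323 to 13.3, 14 and 27.2 CPM (-7.12 ± 0.22, adjusted p = 2.2e-09). Cebpe, the transcription factor of granulocyte maturation, fell from 23.6, 27.2 and 27.7 to 0.139, 0 and 0.577 CPM. Mpo fell by much less, with a log2 change of -2.33 ± 0.13 (adjusted p = 9.6e-08). Ctsg, the granule protease cathepsin G, was at 1682, 1633 and 1584 CPM in DN-GMPs and still at 977, 1225 and 1362 CPM in basophils (-0.47 ± 0.10, adjusted p = 0.0028), after a lower mean of 682 CPM in Pre-BMPs. Elane and Prtn3 were therefore far below Mpo and Ctsg in basophils, although both stood above Ctsg in DN-GMPs. Lcn2, a secondary granule protein, was higher, at 12.9, 21.6 and 10.8 against 80.9, 96.6 and 94.4 CPM (2.64 ± 0.51, adjusted p = 0.0014), and so was Igsf6 (0.55 ± 0.13, adjusted p = 0.0039), whose call was lost with plain library totals (adjusted p = 0.066) and with quantile normalization (adjusted p = 0.074).

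Monocyte and dendritic cell genes were lower for 9 of 17 and higher for 4 (median log2 change -3.11). Their summed level was 2293 to 2685 CPM in DN-GMPs, 250 to 290 CPM in Pre-BMPs and 980 to 1194 CPM in basophils, where Cd14 and Flt3 were at 0. Irf8, the transcription factor that drives monocyte and dendritic fates, fell from 357, 345 and 290 to 2.57, 0.301 and 0 CPM, and its mean was already 15.5 CPM in Pro-BMPs. Ly86, a partner of the Toll-like receptor family, fell from 99.3, 80.5 and 93.8 to 0, 0 and 0.0692 CPM. Csf1r, the M-CSF receptor, fell from 179, 199 and 108 to 5.78, 7.36 and 1.08 CPM at an adjusted p of 0.05 (just under the threshold before rounding), and its call was lost without any 1 of the 6 libraries. Ccr2, a chemokine receptor of monocytes, was higher, at 91.8, 94.3 and 76.4 against 397, 288 and 221 CPM (1.75 ± 0.31, adjusted p = 0.00077), although its means in Pro-BMPs and Pre-BMPs were 2.04 and 5.92 CPM. Lgals3, galectin 3, was at 1.91, 0.144 and 2.16 against 510, 455 and 404 CPM (9.04 ± 0.86, adjusted p = 7.4e-06).

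Stem and multipotent progenitor genes were lower for 15 of 24 and higher for 3 (median log2 change -2.19). The 15 include the gate genes Kit and Cd34. Adgrl4, an adhesion receptor, fell from 114, 173 and 147 to 8.37, 1.97 and 15 CPM (-4.50 ± 0.54, adjusted p = 4.6e-05). Against the list's direction, Angpt1, the ligand of Tie2, was at 28.9, 17 and 25.3 against 117, 121 and 96.8 CPM (2.26 ± 0.19, adjusted p = 3.3e-06) and Adgrg1 at 284, 284 and 258 against 676, 606 and 677 CPM (1.25 ± 0.09, adjusted p = 6e-07).

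Hematopoietic transcription factors were higher for 43 of 81 and lower for 17 (median log2 change 0.95). Gata2, which is needed for basophil and mast cell development, was at 19.7, 27.8 and 22.2 against 2278, 1860 and 2173 CPM (6.51 ± 0.26, adjusted p = 1.2e-08), with means of 164 CPM in Pro-BMPs and 770 CPM in Pre-BMPs. Runx1 was at 64.7, 63.3 and 68 against 388, 398 and 372 CPM (2.56 ± 0.11, adjusted p = 1.9e-08). Cebpa, known for both granulocyte and basophil fates, was at 28.1, 38.4 and 23.7 against 165, 118 and 133 CPM (2.22 ± 0.22, adjusted p = 1e-05). Each of these was higher in every basophil library than in any DN-GMP library. The lymphoid-associated factors Ikzf3 and Nfatc2 were at 0, 1.52 and 0 against 101, 64 and 109 CPM and at 0, 0 and 0 against 35.3, 33.2 and 27.5 CPM. Id2, an inhibitor of E proteins, was at 1.83, 3.07 and 1.07 against 103, 117 and 127 CPM (5.98 ± 0.35, adjusted p = 1.7e-07). Myb, a factor of dividing progenitors, fell from 424, 499 and 448 to 79.4, 89.9 and 111 CPM (-2.30 ± 0.11, adjusted p = 4.4e-08). Spi1, the myeloid factor PU.1, was at 290, 267 and 239 against 353, 279 and 306 CPM and was not called (0.23 ± 0.12, adjusted p = 0.12).

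Some genes that mark mast cells or eosinophils had their highest means in the steps between. Cma1, mast cell chymase, was at 0.0425, 0.0412 and 0.0745 CPM in DN-GMPs and at 0.0463, 0.0463 and 1.57 CPM in basophils, with a mean of 141 CPM in Pre-BMPs. Tpsb2, a mast cell tryptase, had no read in DN-GMPs and 0.0231, 0 and 0.0461 CPM in basophils, beside 33.6 CPM in Pre-BMPs. Neither was called between DN-GMPs and basophils (adjusted p = 0.31 and 0.3). The eosinophil granule gene Prg2 was at 1.32, 1.59 and 8.77 CPM in DN-GMPs and 270, 134 and 267 CPM in basophils (6.33 ± 0.58, adjusted p = 5.5e-06), below its means of 1484 and 1827 CPM in Pro-BMPs and Pre-BMPs. Epx, eosinophil peroxidase, showed the same order, at 0.127, 0.144 and 3.9 against 41.9, 20 and 26.8 CPM, with 371 and 574 CPM between.

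Markers of other cell types that the gates could hold moved as follows. Of 13 mature neutrophil genes, 9 were higher (69.2%) and 1 lower (median log2 change 4.01), beside 23.2% of all genes in each direction. With 1 library left out, 6 to 8 were higher. The DN-GMP gate excluded CD11b and Gr1, and the basophil gate did not. The summed level of the list was 875 to 1197 CPM in basophils and 128 to 139 CPM in DN-GMPs. Cxcr2 alone made up most of the basophil sum, and the others called higher were Retnlg, Mmp9, Camp, Ltf, Padi4, Lcn2, S100a9 and Ceacam1. Padi4, an enzyme that citrullinates histones, was at 3.68 to 11.8 CPM in DN-GMPs and at 103 to 142 CPM in basophils. The granule genes Camp, Ltf and Mmp9 and the secreted Retnlg were called higher at low levels, Camp at 5.16, 3.98 and 3.87 CPM, Ltf at 8.21, 0 and 1.82 CPM, Mmp9 at 11.0, 0.0463 and 1.64 CPM and Retnlg at 13.8, 6.27 and 19.4 CPM in basophils. Ly6g, at 0.276, 0.144 and 0.248 against 1.71, 0 and 0 CPM, was not called, and S100a8 was lower, at 59.7, 49.6 and 72.1 against 27, 23.7 and 18.3 CPM. The call of S100a8 was lost without basophil replicate 3 (adjusted p = 0.060) or DN-GMP replicate 3 (0.063). In the mast cell list 9 of 14 were higher and 2 lower (median 3.31), and in the eosinophil list 10 of 14 higher and 1 lower (median 6.17, or 6.10 with genes at 0 set to their lower bound). Summed levels were 11915 to 12744 against 576 to 786 CPM for the mast cell list. For the eosinophil list they were 1710 to 2067 against 55.7 to 84.2 CPM, with Ear6 at 0 in both populations. Both lists share genes with the basophil markers, and the mast cell list holds the gate genes Fcer1a and Kit. Megakaryocyte and erythroid genes were higher for 9 of 23 and lower for 4 (median 0.11, or -0.15 with plain library totals), led by Itga2b, Gata1, Gfi1b and Klf1, and the summed level was 2032 to 2495 against 419 to 465 CPM with Pf4 at 0 in basophils and Alas2 at 0 in both populations. Of 7 natural killer and T cell genes, 3 were higher and 2 lower (median 6.44, or 4.19 with genes at 0 set to their lower bound), with overlapping summed levels of 699 to 761 and 643 to 779 CPM. Of 8 B cell and plasma cell genes, 2 were higher and 3 lower (median -0.67), and of 4 stromal and endothelial genes, 1 was higher and 2 lower (median -2.32). Cd7, a surface protein of lymphocytes, went from no read to 251, 226 and 194 CPM, and the immunoglobulin gene Ighm fell from 217, 231 and 213 to 32.7, 40.7 and 30.1 CPM. Whether other cells within the gates contributed to these values was not tested.

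**Figure D3:**
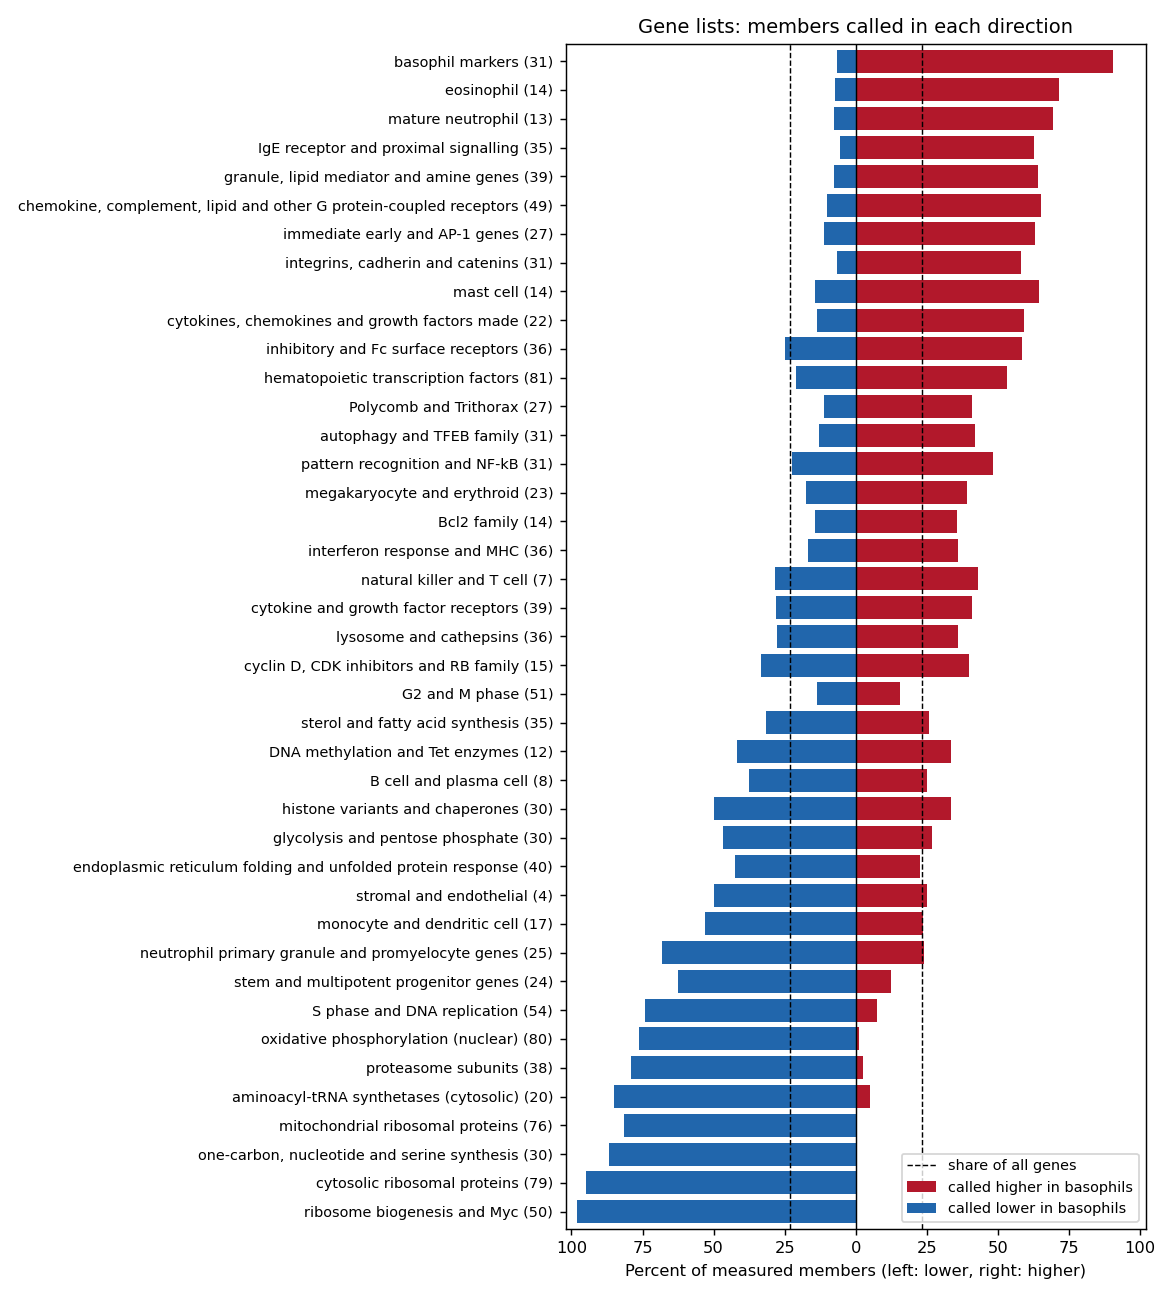
Percent of the measured members of each of 41 gene lists called higher (red, to the right) or lower (blue, to the left) in basophils, with the number measured in brackets and the share of all genes, 23.2% in each direction, as dashed lines. Basophil, receptor and mediator lists stand at the top, and ribosome, nucleotide synthesis and replication lists at the bottom.

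Genes for making ribosomes were lower in basophils. Of 50 ribosome biogenesis and Myc genes, 49 were lower and 0 higher (median log2 change -2.27), and their summed level was 2205 to 2371 CPM in basophils against 8895 to 9482 CPM in DN-GMPs. Myc itself fell from 403, 414 and 340 to 105, 89.8 and 79.7 CPM (-2.08 ± 0.13, adjusted p = 2.9e-07), and Ncl, the nucleolar protein nucleolin, from 1226, 1030 and 1376 to 241, 256 and 245 CPM (-2.28 ± 0.09, adjusted p = 1.2e-08). Of 79 cytosolic ribosomal protein genes, 75 were lower and 0 higher (median -1.04), for example Rplp0, from 1367, 1173 and 1217 to 568, 509 and 668 CPM (-1.11 ± 0.09, adjusted p = 2.2e-06). These genes have many processed pseudogenes that can share their reads, and reads aligned to more than 1 place were 8.51% to 8.66% in basophils and 10.3% to 12.1% in DN-GMPs. Plain library totals lower the log2 change of every gene, so the lower medians under them (-2.525 and -1.296) cannot test the direction of the 2 lists. With quantile normalization the medians were -2.33 and -1.16, with 0 members called higher in either list. The E-box CACGTG, to which Myc can bind, was in 25.6% of the 43 matched promoter windows of ribosome biogenesis genes and in 10.2% of all windows.

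Other lists of biosynthesis were also mostly lower. Mitochondrial ribosomal proteins were lower for 62 of 76 and higher for 0 (median log2 change -0.94), nuclear-encoded oxidative phosphorylation genes lower for 61 of 80 and higher for 1 (-0.73), and aminoacyl-tRNA synthetases lower for 17 of 20 and higher for 1 (-1.22). One-carbon, nucleotide and serine synthesis genes were lower for 26 of 30 and higher for 0 (-1.53). Phgdh, the first enzyme of serine synthesis, fell from 342, 401 and 391 to 52.1, 43 and 38.4 CPM (-3.09 ± 0.15, adjusted p = 3.3e-08). Proteasome subunits were lower for 30 of 38 and higher for 1 (-0.71).

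Other metabolic lists changed in both directions, beside 23.2% of all genes called in each. The share called higher was near that in glycolysis (26.7%) and endoplasmic reticulum genes (22.5%). Their shares called lower were 46.7% and 42.5%. Glycolysis and pentose phosphate genes were higher for 8 of 30 and lower for 14 (median log2 change -0.07), with the glucose transporter Slc2a3 up from 2.91, 10 and 21.4 to 384, 330 and 305 CPM (5.30 ± 0.55, adjusted p = 1.4e-05), and with a switch of lactate transporters, Slc16a1 down by 3.68 on the log2 scale (adjusted p = 8.1e-06) and Slc16a3 up by 2.56 (adjusted p = 1.1e-05). Ldhb, a lactate dehydrogenase subunit, fell from 46.9, 59.9 and 65.4 to 0, 0.879 and 0 CPM. Sterol and fatty acid synthesis genes were higher for 9 of 35 (25.7%) and lower for 11 (31.4%, median -0.27), not far from the shares of all genes. Only 5 were lower without basophil replicate 1 and 7 without DN-GMP replicate 2. The fatty acid desaturases Fads1 and Fads2 rose, by 2.92 ± 0.18 (adjusted p = 2.4e-07) and 4.06 ± 0.31 (adjusted p = 1.1e-06), while Scd2 fell (-1.87 ± 0.22, adjusted p = 3.7e-05). Endoplasmic reticulum genes were higher for 9 of 40 and lower for 17 (-0.12), lysosome genes higher for 13 of 36 and lower for 10 (0.21, or -0.05 with plain library totals), and autophagy genes higher for 13 of 31 and lower for 4 (0.58). The lysosomal protease Ctsd was at 168, 182 and 152 against 1026, 874 and 851 CPM (2.45 ± 0.09, adjusted p = 5.2e-09). Tfec, a relative of the lysosomal regulator TFEB, fell from 74.7, 69.7 and 92.6 to 0, 0.0463 and 0.0692 CPM.

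Genes of the cell cycle divided by phase. Of 54 S phase and replication genes, 40 were lower and 4 higher (median log2 change -0.96), and their summed level was 5469 to 6130 CPM in basophils against 8160 to 8903 CPM in DN-GMPs, without overlap. Mcm5, a subunit of the replicative helicase, fell from 545, 482 and 467 to 192, 252 and 237 CPM (-1.14 ± 0.14, adjusted p = 4.9e-05), and Pcna from 234, 208 and 254 to 173, 186 and 167 CPM (-0.40 ± 0.10, adjusted p = 0.0069). E2f2, a factor of the E2F family, was at 2.08, 4.14 and 2.63 against 96.7, 89.2 and 96.6 CPM (5.05 ± 0.45, adjusted p = 4.1e-06), and E2f8 at 42.6, 37.7 and 29.9 against 214, 158 and 181 CPM (2.33 ± 0.20, adjusted p = 2.9e-06).

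G2 and M phase genes were not lower as a group. Of 51 measured, 36 were not called, 8 were higher and 7 lower, shares below those of all genes, with a median log2 change of -0.03. Their summed level was 5271 to 6887 CPM in basophils, 7401 to 8913 CPM in Pre-BMPs and 5608 to 6293 CPM in DN-GMPs, so that basophil and DN-GMP libraries overlapped. Top2a, topoisomerase II alpha, was at 331, 398 and 378 against 405, 532 and 498 CPM, and Mki67, the Ki-67 antigen, at 212, 202 and 289 against 272, 342 and 385 CPM. Their small rises (0.37 ± 0.12, adjusted p = 0.027, and 0.51 ± 0.19, adjusted p = 0.042) were lost with plain library totals (adjusted p = 0.50 and 0.32). Cdk1 was at 187, 175 and 183 against 160, 151 and 229 CPM and was not called (-0.03 ± 0.15, adjusted p = 0.87). The counts of the list depend on the scaling and on single libraries. With plain library totals 1 was higher and 14 lower. Without basophil replicate 1, 11 were higher and 4 lower, and without basophil replicate 3, 5 were higher and 8 lower. Also, 5 were higher without basophil replicate 2 or DN-GMP replicate 1, and 4 lower without DN-GMP replicate 2 or 3. Regulators of entry into the cycle moved in opposite directions, with 6 of 15 higher and 5 lower (median 0.06, or -0.20 with plain library totals). Cdk4 fell from 559, 585 and 583 to 167, 186 and 232 CPM (-1.58 ± 0.10, adjusted p = 4.1e-07) and Cdk6 from 523, 417 and 462 to 116, 134 and 197 CPM (-1.68 ± 0.17, adjusted p = 1.1e-05). Cyclin D3 (Ccnd3) was at 116, 136 and 117 against 597, 601 and 572 CPM (2.27 ± 0.10, adjusted p = 1.7e-08). The inhibitors Cdkn1b and Cdkn2d rose by 2.57 ± 0.21 (adjusted p = 2.3e-06) and 2.43 ± 0.21 (adjusted p = 4.1e-06), and the pocket protein gene Rbl2 by 2.65 ± 0.20 (adjusted p = 1.1e-06).

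The cell cycle homology region, or CHR, is known as a site of the DREAM and MuvB complexes that time mitotic genes. Its letters TTTGAA, on either strand, were in 72.1% of the 43 matched windows of the list, in 13.6% of the 44 windows of the S phase list and in 12.2% of all windows. The 100 bases before the start are shown for 3 members, Cdk1, which was not called, and Top2a and Kif11, which were called higher, all chosen after their values were seen, with the motif in capitals (TTCAAA on the other strand).
Cdk1, chr10:69352913-69353012, - strand: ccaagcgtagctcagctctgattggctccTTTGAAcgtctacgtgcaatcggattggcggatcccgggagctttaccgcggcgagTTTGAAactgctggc
Top2a, chr11:99024190-99024289, - strand: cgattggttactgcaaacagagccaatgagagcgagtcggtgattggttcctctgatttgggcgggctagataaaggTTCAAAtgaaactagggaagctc
Kif11, chr19:37376282-37376381, + strand: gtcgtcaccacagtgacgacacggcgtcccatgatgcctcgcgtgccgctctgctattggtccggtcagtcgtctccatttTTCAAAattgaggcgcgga
The motif began at position -71 and -15 in Cdk1, -23 in Top2a and -19 in Kif11. Kif11, a mitotic kinesin, was at 131, 140 and 168 CPM in DN-GMPs and 173, 236 and 225 CPM in basophils (0.52 ± 0.14, adjusted p = 0.010), a call lost with plain library totals (adjusted p = 0.16) and quantile normalization (0.064).

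**Figure D4:**
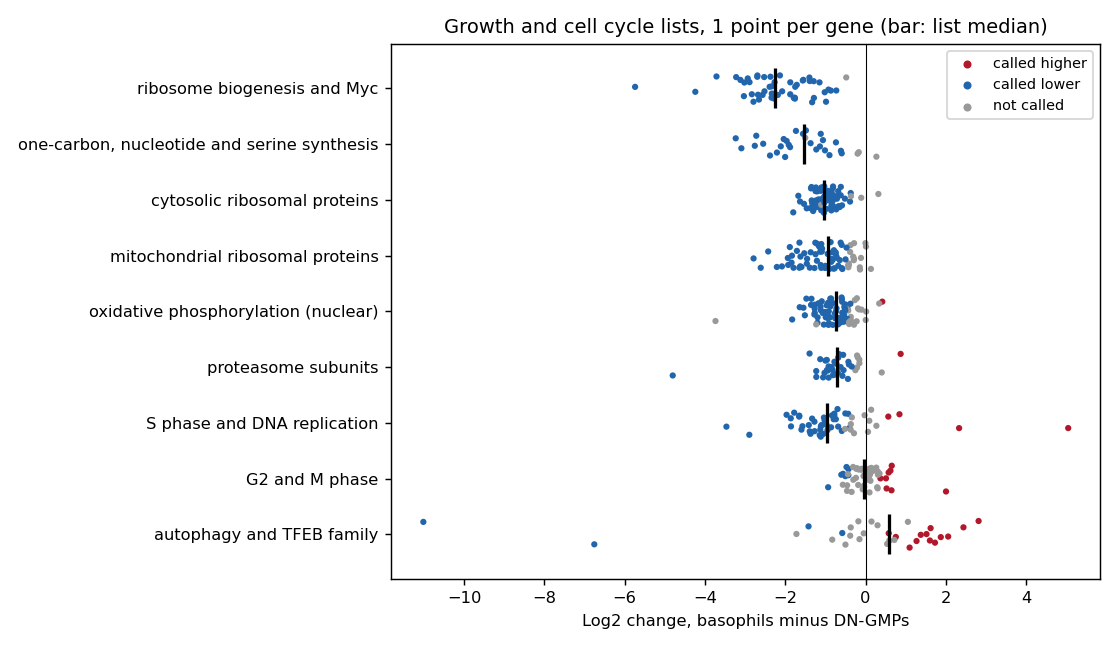
Log2 change (basophils minus DN-GMPs) of each member of 9 growth, metabolism and cell cycle lists, 1 point per gene, red where called higher, blue where called lower and grey where not called, with a bar at the list median. Ribosome biogenesis has its median at -2.27 and S phase at -0.96, while the G2 and M phase members lie around 0.

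**Figure D5:**
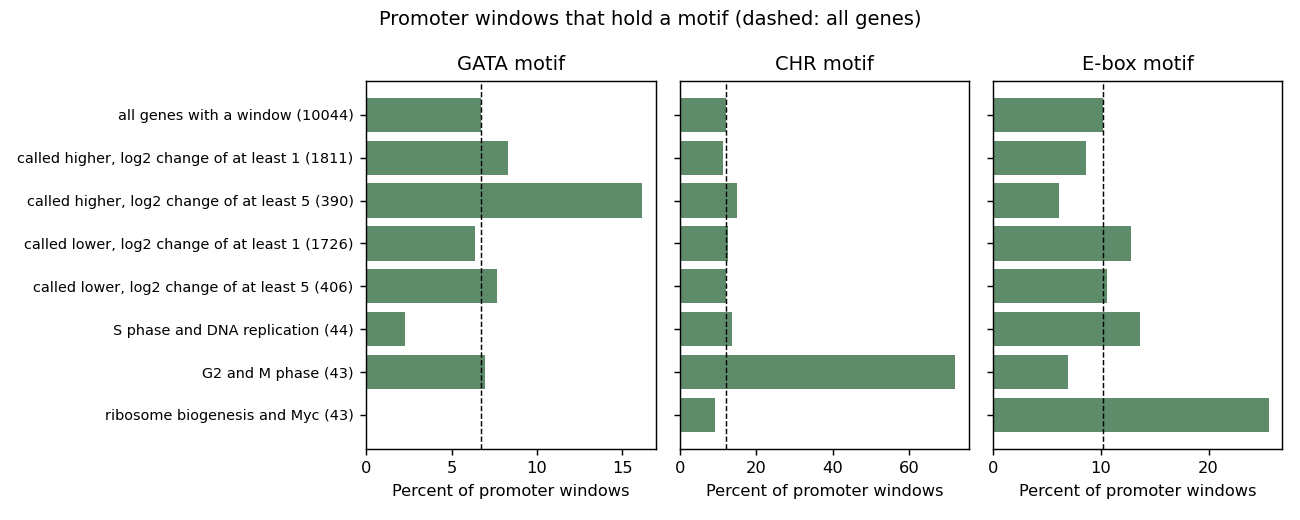
Percent of 300-base promoter windows that hold the GATA, CHR or E-box letters (horizontal axis) for gene sets by change and for 3 lists, with the number of windows in brackets and the share of all 10044 windows as a dashed line (each panel has its own scale). The GATA motif is most frequent among genes higher by a log2 change of at least 5 (16.2%), the CHR in the G2 and M phase list (72.1%) and the E-box in the ribosome biogenesis list (25.6%).

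Members of the survival and chromatin lists were called in each direction, beside 23.2% of all genes in each. The shares lower in the Bcl2 family (14.3%) and in Polycomb and Trithorax genes (11.1%) were below that. Their shares higher were 35.7% and 40.7%. DNA methylation and Tet enzymes had 33.3% higher and 41.7% lower, and histone variants and chaperones 33.3% and 50%. In the Bcl2 family 5 of 14 were higher and 2 lower (median log2 change 0.57), with 0 lower without basophil replicate 1 or DN-GMP replicate 1 or 3, 1 without basophil replicate 2 or 3, and 3 without DN-GMP replicate 2. Mcl1, a survival factor, was at 127, 107 and 115 against 288, 236 and 255 CPM (1.16 ± 0.13, adjusted p = 2e-05) and its antagonist Bbc3 at 1.15, 3.87 and 2.48 against 32.4, 24.1 and 28.3 CPM (3.65 ± 0.53, adjusted p = 0.00019). DNA methylation and Tet enzymes were higher for 4 of 12 and lower for 5 (median 0.43), with 2 higher under plain library totals. The maintenance methyltransferase Dnmt1 fell (-0.68 ± 0.16, adjusted p = 0.0052) and the demethylating enzymes Tet1 and Tet2 rose, by 2.64 ± 0.22 (adjusted p = 2.3e-06) and 1.72 ± 0.25 (adjusted p = 0.00017). Polycomb and Trithorax genes were higher for 11 of 27 and lower for 3 (median 0.43), with 6 lower under plain library totals. Histone variants and chaperones were higher for 10 of 30 and lower for 15 (median -0.37). The variant histone H2afy fell from 1882, 1755 and 1997 to 348, 370 and 311 CPM (-2.46 ± 0.07, adjusted p = 1.5e-09), and the linker histone H1f0, known from cells that have left the cycle, was at 28, 29.2 and 43.4 against 250, 303 and 336 CPM (3.16 ± 0.23, adjusted p = 7.7e-07).

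Some genes had no read at one end. In 82 genes all DN-GMP libraries were at 0 and every basophil library was at 5 CPM or more, and in 32 genes the reverse held. Beyond those named above, the first set holds Adam8, a membrane metalloprotease (403, 236 and 211 CPM, at least 4248-fold higher), Rab19, a small GTPase of membrane traffic (265, 249 and 228 CPM, at least 3710-fold), and Inpp4b, a phosphoinositide phosphatase (215, 249 and 168 CPM, at least 3158-fold). It also holds Cd226, an activating receptor, and Htr1b, a serotonin receptor, at least 933-fold and 871-fold higher. The second set is led by Ppic, a cyclophilin (69.7, 52 and 78.5 CPM in DN-GMPs, at least 963-fold lower), Cnn3, a calponin (55.5, 55.9 and 55.5 CPM, at least 802-fold) and Ak4, a mitochondrial adenylate kinase (64.3, 51.2 and 38.1 CPM, at least 739-fold). Of the transcription factors outside that set, Mef2c fell from 86.6, 85.6 and 83 to 0, 0.0231 and 0 CPM.

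Genes of the cytoskeleton and of translation were among the most read in both populations. Actb, beta actin, was at 2448, 2439 and 2126 against 6494, 6297 and 5940 CPM (1.42 ± 0.07, adjusted p = 5.8e-08), Lcp1, an actin-bundling protein, at 830, 929 and 818 against 3586, 3257 and 3092 CPM (1.95 ± 0.08, adjusted p = 1.6e-08) and Tmsb4x, which binds actin monomers, at 1020, 813 and 1131 against 3588, 3268 and 3530 CPM (1.82 ± 0.12, adjusted p = 4.1e-07). Eef1a1, an elongation factor, was slightly lower (-0.39 ± 0.07, adjusted p = 0.00083). The mitochondrial ribosomal RNA mt-Rnr2 was at 2078, 1472 and 2411 against 2022, 1821 and 2218 CPM and was not called (adjusted p = 0.81).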

How the data were processed

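RNA from sorted bone marrow cells was sequenced with SmartSeq v4 and Nextera XT kits, per the labels' protocols. Since they do not mark strand, reads of antisense genes that overlap could not be separated. Trimmomatic, STAR, deepTools and HTSeq were used, per the submitters' processing notes. Their versions, the genome build and the annotation were not given in the sources used here. Each of the authors' deposited columns holds log2 values for 1 library: 0.5 was added to the reads of a gene, and the sum divided by a scaled library size and multiplied by 1000000. Undoing this gave whole reads, to within 0.001, in 100% of cases. Left out were 3 rows of no gene. They hold the reads outside any feature (6.65% to 12.6% over the 6 libraries), those with several places of alignment (8.51% to 12.1%) and the ambiguous ones (3.63% to 4.14%). Of 2230 rows with a gene ID in place of a symbol, 2187 were given one from the reference table.

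The model was fitted with limma 3.58.1 in R 4.3.3 to all 12 libraries, with 1 mean per population, a variance trend and no block. Tests were two-sided, adjusted by Benjamini-Hochberg over 14560 genes. The filter of 10 reads in 3 libraries removed 0 genes. Log2 changes are given ± SE on that scale, which for genes near 0 depends on the added 0.5 read. CPM are without it. The fit was checked on simulated data with known changes.

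The comparison, its markers and the 41 gene lists (1227 genes, 115 of them in more than 1 list) were chosen with earlier results of these data known. Named genes are the markers and gate genes, up to 4 called members of the main direction and 2 of the other in each list (at least 10 CPM, no overlap, largest change), the 12 largest rises and falls over all genes at 30 CPM, and the 10 most read per population. The text uses some of these 228. A further 37 were chosen after their values were seen, of which 1 is not reported here and the others are Alox5, Camp, Ccr2, Cd226, Cd244a, Cd63, Cdk1, Cebpa, Cma1, Csf1r, Csf2ra, Csf2rb, Ctsg, Epx, Fcer1g, Fyn, Hdc, Htr1b, Ikzf2, Il3ra, Kif11, Klf1, Ly6g, Lyn, Mcm5, Mki67, Myb, Ncl, Osm, Pcna, Rplp0, Runx1, Spi1, Syk, Top2a and Tpsb2. Alas2, Cd14, Ear6, Egr1, Fos, Nr4a1, Ltf, Mmp9, Chil3, S100a9, Ceacam1, Cd200r1, P2rx1, P2rx4 and P2rx7 are named as list members, also after their values were seen. Alternatives changed the libraries fitted, added reads, filter, scaling, variance model and block, and left out each library. Promoter windows are RefSeq's, 1 per gene at the most upstream start, with overlapping motifs allowed.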

Additional observations from a re-analysis of the deposited data

How the results depend on the processing

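The 6749 calls became 5742 with the 2 populations fitted alone and 6978 with plain library totals, and 6027 to 6352 when 1 library was left out. Genes called higher ran from 2986 to 3285 and lower from 2963 to 3180 over those. Of the main calls, 6078 were kept with plain library totals and 6170 with quantile normalization, under which 2 changed direction. Whether replicate numbers pair the libraries is not known. Deviations of same-numbered basophil and DN-GMP libraries from their population means correlated at -0.018, 0.0031 and 0.0033 over 8128 genes. Not every library correlated best with its own number. Such low values cannot decide whether libraries share a mouse, since other variation between libraries can hide it. A block on the number gave 6587 calls, 3326 higher and 3261 lower, and 6404 of the main calls were kept. Genes at 0 in basophils numbered 20 rather than 32 when 10 CPM was asked of DN-GMPs. Named genes that changed direction were all not called: mt-Rnr2 was at -0.37 with quantile normalization, -0.21 with plain totals and -0.15 to 0.20 with 1 library left out. Spi1 was at -0.035 with quantile normalization and -0.027 with plain totals. Cma1 ran from -0.098 (without basophil replicate 3) to 2.29 and Cdk1 from -0.22 to 0.079 with 1 library left out, and Cdk1 was at 7.4e-05 with median-of-ratios size factors. Of the 265 named genes, 23 lost their call under at least 1 setting and 2 gained one, and the causes were not tested. Depth limits genes with no read in a population to a lower bound of the fold.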
